A study of Mus musculus with 19 samples.

Results

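Pancreatic islets of 3 Nnat+/-p-Heavy mice (Heavy), the overgrown morph of mice that lack the paternal copy of Nnat, were compared by RNA-seq with islets of 3 wild-type mice (WT) at 6 weeks of age. These 6 libraries, chosen by their titles in the submitters' labels, are part of the 19 libraries of the series. All 6 were males from crosses of C57BL6/J congenic Nnat knockout fathers with FVBN/J mothers, so that every mouse was an F1 hybrid and WT and mutant animals could be littermates. Nnat is imprinted and is expressed from the paternal copy, and the deletion was carried in every tissue from conception, not in islets alone. Heavy mice carried the same deletion as Nnat+/-p-Light mice (Light), whose weight stayed close to that of WT, and the 3 Light libraries of the same age served as a further reference and shared the estimate of spread. No mouse was treated. Mice of 3 weeks, 3 Heavy-like, 4 WT and 3 Light-like, were other animals. Heavy-like 1 and 2 and WT 4 were females and the rest were males, so sex was unequal between the groups. The study ties the morph names of these younger mice to clusters of the same islet transcriptomes, so tests that involve them may not be independent of the naming. Each library is labelled as a separate replicate, and p-values measure the spread between these libraries.

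Nnat encodes neuronatin, a small membrane protein of the endoplasmic reticulum (ER) that in beta cells associates with the signal peptidase complex. Islets are clusters of hormone cells in which beta cells make insulin, alpha cells glucagon and delta cells somatostatin. Hormone precursors enter the ER through the Sec61 channel, lose their signal peptide, are glycosylated where they carry a site, and are folded by chaperones and protein disulfide isomerases. The unfolded protein response raises the transcription of that folding machinery when unfolded protein accumulates. Immediate early genes such as Fos and Egr1 encode short-lived factors that are transcribed within minutes of calcium, growth factor or stress signals.

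Library totals lay between 8709150 and 12105605 counts in the Heavy and WT libraries. Levels are given as counts per 1 M of the TMM-scaled library size (CPM), at which 3 counts correspond to between 0.2547 and 0.3648 CPM. Ins2 lay between 170512 and 285806 CPM in all 6 libraries, and the defining markers of beta, alpha and delta cells were detected in each. The WT mice were not a tight group. On the first principal component, which held 49.1% of the variance, the Heavy libraries lay at 57.3, 33.6 and 32.2, WT 2 and WT 3 at 7.17 and 18.5, and WT 1 at -46.8, beside the Light libraries at -41, -32.3 and -28.6. Heavy 1 therefore stood farthest from WT 1 at the other end. The summed level of 24 acinar markers was 40263, 21161 and 17867 CPM in Heavy and 10592, 12381 and 23740 CPM in WT, which overlap, and that of 26 duct markers was 9031, 5306 and 5169 CPM in Heavy and 3499, 3735 and 4442 CPM in WT, which do not. The part of these cells in the results was not tested.

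Of 16463 genes tested, 104 (0.632%) differed between Heavy and WT at a Benjamini-Hochberg adjusted p under 0.05 in edgeR's quasi-likelihood test, which is what "called" means here. Of these, 57 genes were higher in Heavy (0.346% of those tested) and 47 were lower (0.285%). Larger changes were more frequent among the higher genes: a log2 fold change of 1 or more in size was reached by 43 of the 57, against 10 of the 47 lower genes. For every called gene the 3 Heavy and the 3 WT mice were apart, that is, their values did not overlap. This held for 21.5% of all genes tested. For 100 of the 104 the Heavy mice were apart from the 3 Light mice too. No such share was taken over all genes tested. The Light libraries also entered the fit that called the genes, so the count is a description only. In 41 of the 57 higher genes WT 1 was the lowest of the WT mice, and in 43 Heavy 1 was the highest of the Heavy mice. Without Nnat and Gm23134 there were 45 lower genes, and WT 1 was the highest of the WT mice in 23. These shares were not taken over all genes tested.

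The number of calls was fragile, and 98 of the 104 adjusted p values lay between 0.03 and 0.0495. It was 576 by DESeq2 and 1 when the Light libraries were left out of the fit. Leaving out a single library gave 20, 64 and 16 called genes without Heavy 1, 2 and 3, then 11, 3 and 128 without WT 1, 2 and 3, and 8, 2 and 2 without Light 1, 2 and 3. Nnat stayed called in every one of these 9 fits, and 6 of the 46 called genes named by the rule stayed called in at least 5. Fold changes under 16 settings were followed for 47 genes, namely Nnat with its neighbours, the genes of largest change and the called list members. Their 742 values held 0 changes of sign, and the other genes named were not followed across settings. All of the 47 but Blcap had been called on these libraries, which leaves little room for a change of sign. The count is a description only. The values in each mouse are therefore given beside each test. Of the called genes 52 overlap another annotated gene, with which they may share reads.

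Nnat, on chromosome 2 from 157560078 to 157562522 of GRCm38, was at 29.5, 32.6 and 28.3 CPM in WT and at 0, 0.243 and 0.181 CPM in Heavy, the last 2 being 2 counts each. The Heavy libraries therefore carried the deletion that their labels give. Nnat was at 0.214, 0.198 and 0 CPM in Light, so it does not tell the morphs apart. In Heavy the level was at least 97.6-fold lower than in WT when each Heavy library is set at the floor of 3 counts. Gm23134, a short gene annotated inside the Nnat locus, was at 4.27, 4.84 and 4.9 CPM in WT and at 0 in all 3 Heavy mice, at least 15.1-fold lower. Without strand in the counting its reads cannot be told apart from those of Nnat. Blcap, whose gene overlaps Nnat, had a log2 fold change of -0.22 ± 0.09 (SE) and an edgeR adjusted p of 0.241.

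Genes of the ER machinery of secretory cells leaned lower in Heavy. Of 62 genes on 2 lists, the translocation and glycosylation machinery and the folding machinery with its stress response, 12 were called, all lower, against 0.285% of all genes. The mice were apart, with Heavy lower, for 45 of the 62 genes (72.6%), against 10.9% of all genes tested, and 58 of the 62 log2 fold changes were below 0. The median log2 fold change was -0.27 over the 32 translocation genes and -0.44 over the 30 folding genes, against 0 over all genes, so the differences were small and shared by many genes. Part of these lists follows genes that the study picked out on these samples, which makes their direction no independent evidence. The summed level of the 62 genes was 14278, 14954 and 13606 CPM in Heavy and 19854, 18483 and 17727 CPM in WT.

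**Figure D1:**
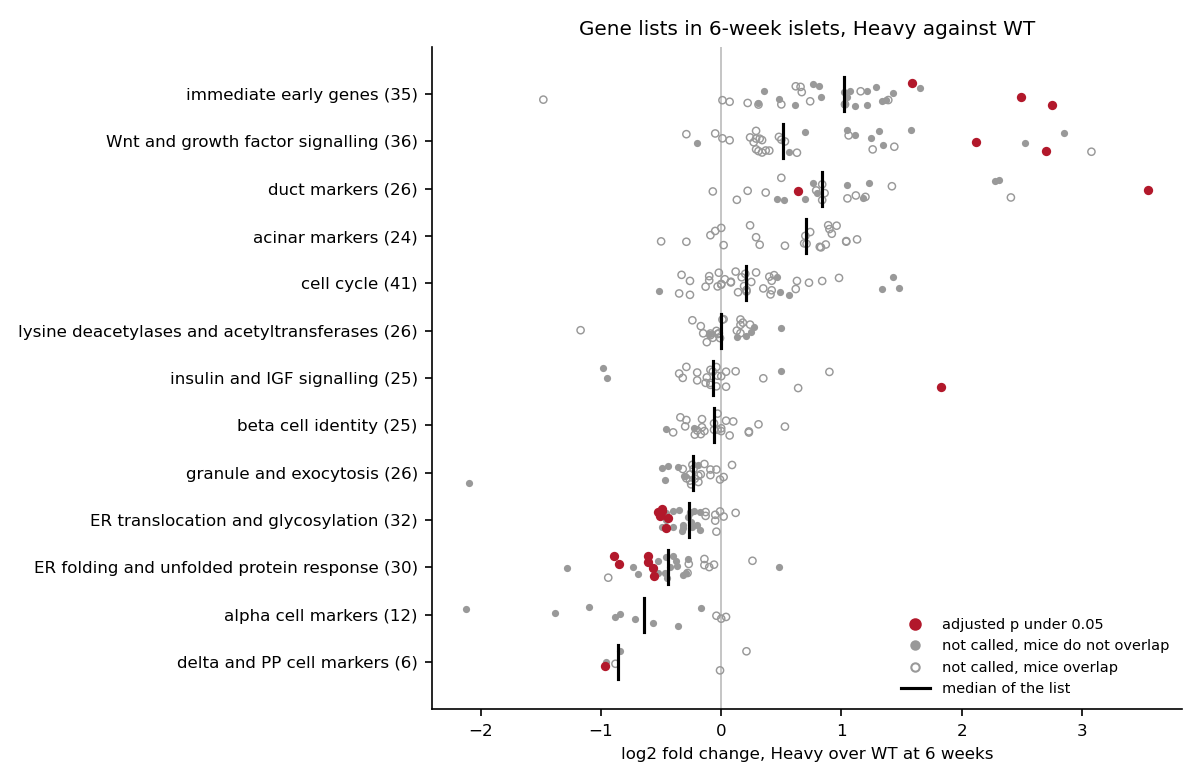
Log2 fold change of Heavy over WT at 6 weeks (horizontal axis) for the tested genes of 13 lists (rows, number of genes in parentheses), each point a gene and each vertical bar the list's median. Immediate early genes lie to the right of 0 with a median of 1.02, and the ER, alpha cell and delta and PP cell lists lie to the left, with medians between -0.27 and -0.86.

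At the entry to the ER, Sec61b, a subunit of the translocation channel, was at 147, 127 and 143 CPM in WT and at 103, 103 and 97 CPM in Heavy, a log2 fold change of -0.46 ± 0.09 (SE, edgeR adjusted p = 0.0408). Ssr4, a subunit of the translocon-associated complex, had the tightest values, at 192, 202 and 201 CPM in WT and 142, 141 and 140 CPM in Heavy (log2 fold change -0.49, edgeR adjusted p = 0.0344). Spcs3 encodes a subunit of the signal peptidase, the complex with which neuronatin associates. It was at 455, 418 and 382 CPM in WT and at 284, 317 and 283 CPM in Heavy (log2 fold change -0.51, edgeR adjusted p = 0.0495). Every Heavy mouse was below every WT and every Light mouse for these 3 genes. The oligosaccharyltransferase subunits Ddost and Ostc fell by 0.49 and 0.44 on the log2 scale, and Lman1, a cargo receptor for export from the ER, fell by 0.53.

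Among folding genes, Pdia3, a disulfide isomerase of glycoproteins, was at 1098, 1050 and 1003 CPM in WT and at 680, 742 and 704 CPM in Heavy (log2 fold change -0.57 ± 0.10, edgeR adjusted p = 0.0405). Pdia6, another disulfide isomerase, was at 580, 571 and 548 CPM in WT and at 360, 402 and 353 CPM in Heavy (log2 fold change -0.61, edgeR adjusted p = 0.0344). Calr, the lectin chaperone calreticulin, was at 731, 725 and 665 CPM in WT and at 463, 496 and 434 CPM in Heavy (log2 fold change -0.61, edgeR adjusted p = 0.0344). For each of these the lowest WT mouse was above the highest Heavy mouse and the Light mice lay on the side of WT. Of the stress-responsive genes, Sdf2l1, a cofactor of the chaperone BiP, fell by 0.89 on the log2 scale, Hyou1, an ER member of the large Hsp70 group, by 0.85, and the secreted ER factor Manf by 0.56.

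**Figure D2:**
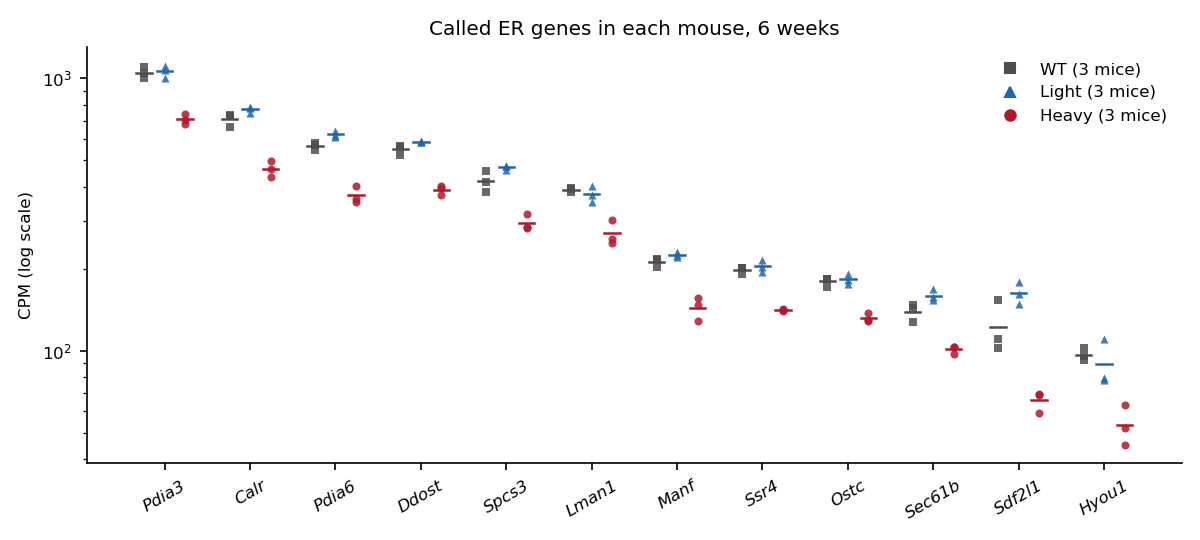
Level in each mouse (vertical axis, CPM on a log scale) of the 12 called ER genes at 6 weeks; points are mice, short bars are group means. In every gene the 3 Heavy mice lie below the 3 WT mice, as in Ssr4 with 140 to 142 CPM in Heavy and 192 to 202 CPM in WT.

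Hspa5, which encodes BiP itself, was at 2539, 1909 and 1691 CPM in WT and at 1307, 1367 and 1136 CPM in Heavy, without overlap and with an edgeR adjusted p of 0.0783. Hsp90b1, the ER member of the Hsp90 family, was at 978, 985 and 905 CPM in WT and at 604, 729 and 656 CPM in Heavy (log2 fold change -0.53, edgeR adjusted p = 0.0634), and Dnajb9 and Pdia4 had log2 fold changes of -0.47 and -0.38 with adjusted p values of 0.118 and 0.0709. Ddit3, a transcription factor of the late stress response, was at 144, 64.1 and 45.4 CPM in WT and at 35.5, 34.5 and 34.9 CPM in Heavy. WT 1 and the Light mice, at 132, 166 and 130 CPM, held the high values of Ddit3. Eif2ak3, the stress kinase PERK, went the other way and was at 44.7, 67.6 and 67.9 CPM in WT and at 109, 70.9 and 70.6 CPM in Heavy, with an edgeR adjusted p of 0.228. The 12 ER calls fell to 0 in 7 of the 9 fits that left out a library, without Heavy 1 or 3, WT 1 or 2 or any of the Light libraries, with adjusted p values up to 0.15, and DESeq2 called 28.

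Genes of ER folding are known to share the ER stress element (ERSE), which binds NF-Y together with ATF6 and consists of CCAAT and CCACG with 9 bases of any kind between them. It was searched on both strands of 300-base promoter windows from RefSeq (GRCm38.p6, 250 bases before to 50 after the start), which held 48 of the 62 ER genes. It was found in 9 of 25 folding genes (36%), in 0 of 23 translocation genes, in 0.176% of the promoters of genes tested and in 35 of all 27025 promoters (0.13%). The related ERSE-II, ATTGG and CCACG with 1 base between them, was in 2 folding genes, and no gene of the lists held both. Hspa5 and Hsp90b1 also held the element and were apart with Heavy lower, but their windows are not shown. The windows of 5 genes whose mice were apart, with Heavy lower, are shown as examples, 5′ to 3′ on the strand of the gene. The match to the element is in capitals. Of these 5 genes, Calr and Pdia6 were called and the others were not.
Calr (chr8:84847050-84847118, minus strand): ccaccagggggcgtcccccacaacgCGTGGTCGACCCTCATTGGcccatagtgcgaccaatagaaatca
Pdia6 (chr12:17266466-17266534, plus strand): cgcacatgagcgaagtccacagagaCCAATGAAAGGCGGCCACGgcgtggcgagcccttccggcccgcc
Canx (chr11:50325775-50325843, minus strand): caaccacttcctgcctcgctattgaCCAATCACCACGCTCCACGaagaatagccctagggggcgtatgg
Dnajc3 (chr14:118937802-118937870, plus strand): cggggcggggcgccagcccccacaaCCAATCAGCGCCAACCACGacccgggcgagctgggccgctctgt
Creld2 (chr15:88819495-88819563, plus strand): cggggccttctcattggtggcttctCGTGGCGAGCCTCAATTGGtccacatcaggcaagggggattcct
The element stood in the written direction in Pdia6, Canx and Dnajc3 and in the reverse direction in Calr and Creld2. The log2 fold changes of Canx, Dnajc3 and Creld2 were -0.37, -0.32 and -0.43, with edgeR adjusted p values of 0.122, 0.118 and 0.116. A match is a description of the sequence only.

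Immediate early genes leaned higher in Heavy. Of 35 tested, 3 were called, all higher, against 0.346% of all genes, and in 22 (62.9%) the Heavy mice lay above the WT mice, against 10.6% of all genes. The median log2 fold change of the list was 1.02, and 34 of the 35 values were above 0. The study had named Fos and Egr1 as higher in these Heavy islets, and the list was chosen with this known. Its direction is therefore no independent evidence. Fos, a subunit of the AP-1 factor, was at 2.9, 17.7 and 13.6 CPM in WT and at 112, 76.1 and 40.6 CPM in Heavy, a log2 fold change of 2.75 ± 0.50 (SE, edgeR adjusted p = 0.0406). Egr1, a zinc finger factor, was at 19.7, 43 and 25.7 CPM in WT and at 235, 154 and 110 CPM in Heavy (log2 fold change 2.49 ± 0.31, edgeR adjusted p = 0.0219). Dusp1, a phosphatase that switches off MAP kinases, was at 32.8, 54.1 and 41.2 CPM in WT and at 161, 144 and 80.4 CPM in Heavy (log2 fold change 1.59 ± 0.24, edgeR adjusted p = 0.0344). Heavy 1 was the highest mouse for all 3 genes and Heavy 3 the lowest of its group, still above every WT and Light mouse. Egr1 stayed called in 7 of the 9 fits that left out a library, Dusp1 in 2 and Fos in 0, where its adjusted p lay between 0.0561 and 0.115.

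Junb, another AP-1 subunit, was at 45.8, 103 and 110 CPM in WT and at 326, 202 and 170 CPM in Heavy, without overlap, but its edgeR adjusted p was 0.0653. The nuclear receptor Nr4a1 overlapped, at 4.01, 5.52 and 6.79 CPM in WT against 23.3, 7.05 and 5.89 CPM in Heavy. The Dusp1 promoter held a cyclic AMP response element, TGACGTCA, which is bound by CREB and was in 2 of 31 windows of immediate early genes, against 3.21% of the windows of genes tested and 1.88% of all RefSeq promoter windows. The match is in capitals, on the strand of the gene.
Dusp1 (chr17:26508583-26508640, minus strand): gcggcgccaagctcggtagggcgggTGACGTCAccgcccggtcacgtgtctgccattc

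Txnip encodes a protein that binds thioredoxin and limits glucose uptake, and its transcription is known to follow glucose. It was at 67.6, 210 and 156 CPM in WT and at 478, 492 and 573 CPM in Heavy, a log2 fold change of 1.83 ± 0.30 (SE, edgeR adjusted p = 0.0344). The Light mice, at 83.8, 84.4 and 80.8 CPM, were low and close together, while the WT mice spread over a wide range. It stayed called in 2 of the 9 fits that left out a library. Gm15441, annotated on the opposite strand over Txnip, had a log2 fold change of 1.80, and without strand its reads cannot be told apart from those of Txnip. Txnip was the called member of 25 tested genes of insulin and IGF signalling, whose median was -0.07. Irs2, an insulin receptor substrate, was at 50.8, 53.9 and 52.7 CPM in WT and at 68.2, 77.5 and 76.3 CPM in Heavy, with an edgeR adjusted p of 0.15, and Insr, the insulin receptor, had a log2 fold change of 0.

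The same genes were measured in the 3-week mice, in which the comparison of Heavy-like with WT called 112 of 16257 genes (0.689%), 35 of them higher (0.215%) and 77 lower (0.474%). Nnat and Gm23134 were called lower there too. Of the other genes called at 6 weeks, 88 were tested at 3 weeks: 49 had the same sign, 0 were called in the same direction by edgeR or DESeq2 (6 at an unadjusted p under 0.05), and 7 were called in the opposite direction. These were Fos, Egr1, Dusp1, Txnip, Gm15441, Hmgb2 and H3f3b, all higher in Heavy at 6 weeks and lower in Heavy-like at 3 weeks. Levels at the ages come from count tables scaled separately and are compared within an age.

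At 3 weeks Fos was at 161, 133, 132 and 94.6 CPM in WT and at 26.8, 18.3 and 29.3 CPM in Heavy-like mice, a log2 fold change of -2.41 ± 0.17 (SE, edgeR adjusted p = 2.43e-07). Egr1 was at 517, 399, 402 and 284 CPM in WT and at 74.2, 68.6 and 90.1 CPM in Heavy-like mice (log2 fold change -2.37 ± 0.16, edgeR adjusted p = 2.43e-07). Txnip was at 248, 290, 339 and 189 CPM in WT and at 135, 128 and 155 CPM in Heavy-like mice (log2 fold change -0.94 ± 0.14, edgeR adjusted p = 0.00162). The WT mice were the high group at 3 weeks and the groups did not overlap. The 3 Light-like mice were lower still, with Fos at 4.64, 2.89 and 2.49 CPM and Egr1 at 14, 9.65 and 7.96 CPM. Dusp1, with 168, 142, 168 and 109 CPM in WT and 44.6, 45.5 and 47.1 CPM in Heavy-like mice, had a log2 fold change of -1.69, and Hmgb2, a chromatin protein, and H3f3b, a gene of the replacement histone H3.3, had -0.93 and -0.38. With sex as a covariate these 3-week log2 fold changes were -2.19 for Fos, -2.15 for Egr1 and -0.73 for Txnip.

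**Figure D3:**
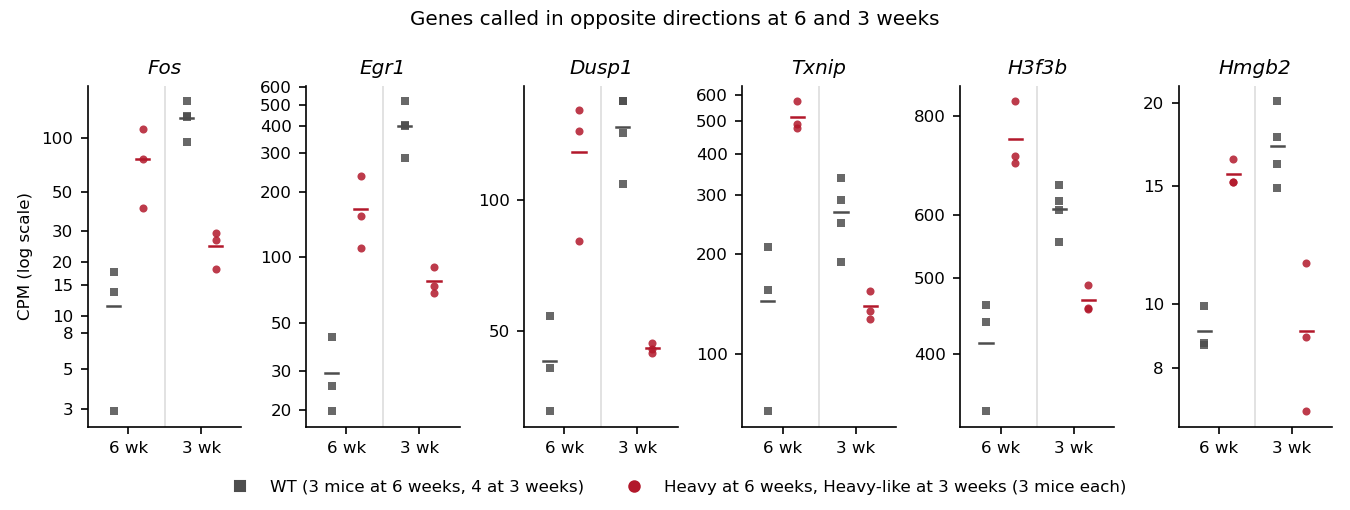
Level in each mouse (vertical axes, CPM on a log scale) of 6 genes called in opposite directions, WT and Heavy at 6 weeks on the left of each panel and WT and Heavy-like at 3 weeks on the right; short bars are means, and the ages were scaled separately. Egr1 lies between 110 and 235 CPM in Heavy against 19.7 to 43 CPM in WT at 6 weeks, and between 68.6 and 90.1 CPM in Heavy-like against 284 to 517 CPM in WT at 3 weeks.

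Of 34 immediate early genes tested at 3 weeks, 15 were called lower in Heavy-like mice, against 0.474% of all genes. Of these 15, Fos, Egr1 and Dusp1 were the ones called at 6 weeks; all 15 had a log2 fold change above 0 there, as had 34 of the 35 genes of the whole list. The difference between the ages, tested as an interaction in all 19 libraries, was called for 315 of 17107 genes (1.84%), for 60 of the 102 genes called at 6 weeks that could be tested, and for 16 immediate early genes. The 102 genes were chosen by the 6-week difference that enters this test, so their share is a description only. The difference was 5.18 ± 0.54 (SE, log2 units, edgeR adjusted p = 4.82e-05) for Fos and 4.89 ± 0.39 (edgeR adjusted p = 1.58e-06) for Egr1. The ER lists had a 3-week median of -0.03, with 0 of 62 genes called by edgeR (3 at an unadjusted p under 0.05, and 2 called by DESeq2), and the difference between the ages was called for 15.

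**Figure D4:**
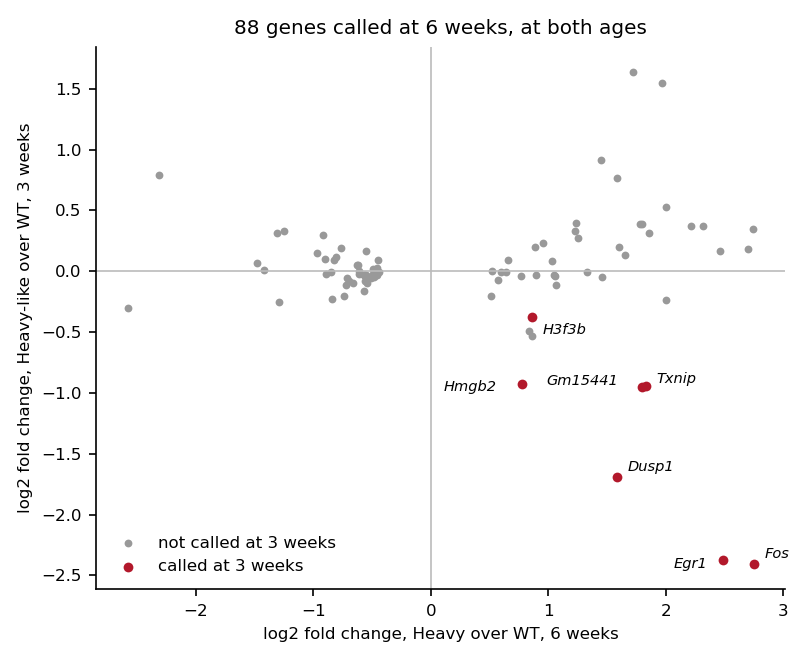
Log2 fold change of Heavy over WT at 6 weeks (horizontal axis) and of Heavy-like over WT at 3 weeks (vertical axis) for the 88 genes called at 6 weeks that were tested at both ages, without Nnat and Gm23134; red points are called at 3 weeks. The 7 red points lie at the lower right, from 0.78 to 2.75 at 6 weeks and from -0.38 to -2.41 at 3 weeks.

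Several of the largest increases at 6 weeks were in genes near the floor in WT, though others, such as Gabrp and Fos, were not. Pzp, a secreted protease inhibitor, was at 0.256, 0.849 and 0.668 CPM in WT and at 7.22, 20.1 and 5.7 CPM in Heavy (log2 fold change 4.19 ± 0.58, edgeR adjusted p = 0.0344). Car2, a carbonic anhydrase, was at 1.11, 1.1 and 5.23 CPM in WT and at 47.6, 21.2 and 46.8 CPM in Heavy (log2 fold change 4.04 ± 0.50, edgeR adjusted p = 0.0219), and it stayed called in 6 of 9 fits that left out a library. Efemp1, an extracellular matrix protein, was at 0.0854, 0.34 and 0.89 CPM in WT and at 5.77, 7.42 and 3.53 CPM in Heavy. Anxa8, an annexin, was at 0.171, 0.509 and 1.78 CPM in WT and at 9.82, 6.81 and 8.06 CPM in Heavy. The Heavy mice were well above all WT and Light mice for each of these, in spite of a spread within Heavy. Gabrp and Tmem45b had log2 fold changes of 2.74 and 2.73. The log2 fold change of 2310007B03Rik was 4.08 on few counts, with 0, 0.17 and 1.11 CPM in WT and 9.05, 3.53 and 7.15 CPM in Heavy, and DESeq2 did not call it (adjusted p = 0.0705). The size of several of these rested on WT 3, the highest WT mouse: without it the log2 fold change was 6.10 for 2310007B03Rik, 5.11 for Car2, 4.63 for Efemp1 (3.72 with it) and 4.55 for Anxa8 (3.41 with it). The lowest values over the 9 fits that left out a library were 3.46 for 2310007B03Rik, 3.68 for Car2, 3.21 for Efemp1 and 2.91 for Anxa8. Without Heavy 2 the log2 fold change of Pzp was 3.43.

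Of 26 duct markers 2 were called, against 0.346% of all genes called higher, 12 (46.2%) were apart with Heavy higher, against 10.6% of all genes, and the median log2 fold change was 0.84. Krt19, the duct keratin, was at 73.6, 159 and 216 CPM in WT and at 492, 298 and 225 CPM in Heavy, with an edgeR adjusted p of 0.151, and Sox9, a duct transcription factor, at 6.66, 18.8 and 33.9 CPM against 62.7, 34.8 and 40.1 CPM, with 0.194. Of 24 acinar markers 0 were apart and 0 were called by edgeR or DESeq2, with 4 at an unadjusted p under 0.05, near the 17.7% of all genes. The median log2 fold change of the acinar markers was 0.71, and 20 of the 24 values were above 0. The summed duct level of the Light mice was 4140, 7076 and 5626 CPM, above Heavy 2 and 3 in Light 2 and 3. Among the genes of large increase, Gabrp, a GABA receptor subunit, was at 7.62, 5.15 and 4.44 CPM in Light and at 69.6, 25.2 and 39.8 CPM in Heavy. Car2 was at 1.07, 1.69 and 1.28 CPM in Light. The part of duct cells in these increases was not tested.

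**Figure D5:**
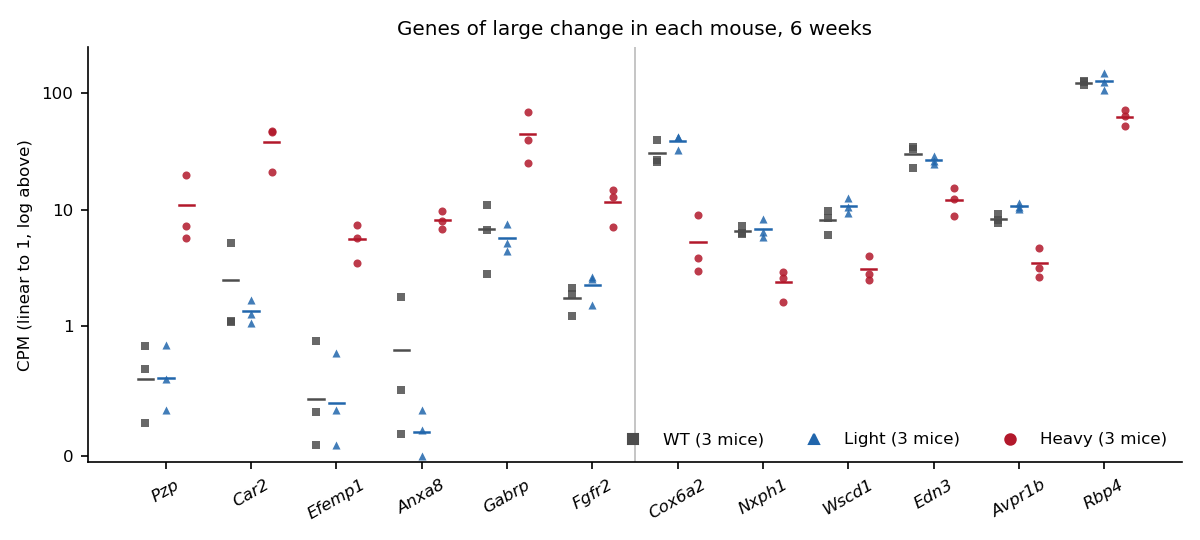
Level in each mouse (vertical axis, CPM, linear up to 1 and log above) of 6 genes called higher (left of the line) and 6 called lower (right of the line) at 6 weeks; points are mice, short bars are group means. The Heavy mice lie apart from WT and Light in each, as in Car2 with 21.2 to 47.6 CPM in Heavy and at most 5.23 CPM in the others.

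Growth factor genes leaned the same way. Fgfr2, a receptor for fibroblast growth factors, was at 1.88, 2.12 and 1.22 CPM in WT and at 13, 14.7 and 7.15 CPM in Heavy, a log2 fold change of 2.70 ± 0.34 (SE, edgeR adjusted p = 0.0219). It stayed called in 6 of 9 fits that left out a library. The annotated Fgfr2 gene runs from 130162451 to 133123350 on chromosome 7 and overlaps many other genes, with which it may share reads. Among them is Ctbp2, itself called higher (log2 fold change 1.03). Epn3, an epsin of the endocytic machinery, rose by 2.12. It was the other called gene among 36 tested genes of Wnt and growth factor signalling, where 0.346% of all genes were called higher. Of the 36 genes 12 (33.3%) were apart with Heavy higher, against 10.6% of all genes. The study had named Fgfr2, Epn3, Wnt7a, Wnt7b and Smad3 as higher in these Heavy islets, which makes the direction of the list no independent evidence. The ligands Wnt7a and Wnt7b had log2 fold changes of 2.85 and 2.53, each with an edgeR adjusted p of 0.0562: Wnt7b was at 0.513, 2.97 and 4.67 CPM in WT and at 22.1, 13.9 and 9.96 CPM in Heavy. Smad3, which carries TGF-beta signals to the nucleus, was at 4.44, 8.15 and 11.1 CPM in WT and at 28.7, 14.6 and 14.8 CPM in Heavy, with an adjusted p of 0.0939.

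The study's list of 188 HDAC-responsive genes was chosen on these samples, so its direction is no independent evidence. All 188 had a log2 fold change above 0, against 49.6% of all genes, 121 (64.4%) were apart with Heavy higher, against 10.6%, and 13 were called, against 0.346% called higher. The called members were H3f3b, Fos, Anxa8, C3, Dusp1, Car2, Krt17, Btg1, Klf10, Txnip, Egr1, Slc39a4 and Sox4. Krt17, an epithelial keratin, had a log2 fold change of 2.22, the zinc transporter Slc39a4 2.32 (1.73 without Heavy 1), the complement component C3 1.45, and the transcription factors Sox4 and Klf10 1.07 and 0.89. Btg1, an inhibitor of proliferation, was at 170, 182 and 168 CPM in WT and at 238, 228 and 273 CPM in Heavy, and H3f3b at 339, 462 and 440 CPM against 835, 713 and 699 CPM. Of the enzymes themselves, 26 lysine deacetylases and acetyltransferases, 0 were called by edgeR or DESeq2 (4 at an unadjusted p under 0.05), and the median log2 fold change was 0. The values lay between -1.17 and 0.5. The mice were apart with Heavy higher for 5 of the 26 (19.2%), against 10.6% of all genes, and with Heavy lower for 1 (3.85%), against 10.9%. Hdac1, Hdac2 and Hdac3 had log2 fold changes of -0.01, -0.02 and 0.13.

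Alpha and delta cell genes had lower values in Heavy, most of them short of the threshold. Gcg, which encodes glucagon, was at 17551, 17783 and 17956 CPM in WT and at 9110, 9299 and 6395 CPM in Heavy, a log2 fold change of -1.10 ± 0.23 (SE) that missed the threshold with an edgeR adjusted p of 0.0624. Of 12 alpha cell markers 9 (75%) were apart with Heavy lower, against 10.9% of all genes, and the median log2 fold change was -0.64, but 0 were called by edgeR (8 had an unadjusted p under 0.05, and DESeq2 called 4). Sst, which encodes somatostatin, was at 2070, 1617 and 1599 CPM in WT and at 761, 999 and 959 CPM in Heavy (edgeR adjusted p = 0.0562). The study had named Gcg and Sst as lower in these Heavy islets. Ppy, which encodes pancreatic polypeptide, overlapped between the groups and had a log2 fold change of -0.01. In bulk islets fewer cells of a type and less RNA per cell cannot be told apart.

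Rbp4, a retinol carrier that also marks delta cells, was the called member of the delta and PP cell list, at 127, 125 and 118 CPM in WT and at 52.6, 72.4 and 64.5 CPM in Heavy (log2 fold change -0.97 ± 0.14, edgeR adjusted p = 0.0344). It was called in 4 of the 9 fits that left out a library. Of 25 beta cell genes 0 were called by edgeR or DESeq2 (2 at an unadjusted p under 0.05), and the median log2 fold change was -0.06. Ins1 and Ins2 together took 23.9%, 31.8% and 35% of all counts in Heavy and 26.9%, 26.3% and 27.3% in WT, a wider spread in Heavy (exact two-sided permutation p = 0.4, smallest possible p 0.1). With libraries scaled to their total counts 34 of 78 called genes were higher (43.6%), against 54.8% with TMM, while the median of all genes moved to -0.07. Of 26 genes of secretory granules 0 were called by edgeR (7 at an unadjusted p under 0.05) and 4 by DESeq2, and 8 (30.8%) were apart with Heavy lower, against 10.9% of all genes. Vgf, a granule peptide precursor, was at 80, 20.3 and 22.3 CPM in WT and at 9.91, 7.3 and 11.2 CPM in Heavy, with WT 1 beside the Light mice at 82.5, 117 and 109 CPM.

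The other large decreases were in single genes. Cox6a2, the heart and muscle isoform of a cytochrome c oxidase subunit, was at 39.6, 26.8 and 26 CPM in WT and at 3.85, 9.12 and 2.99 CPM in Heavy, a log2 fold change of -2.58 ± 0.33 (SE, edgeR adjusted p = 0.0237, -3.17 without Heavy 2), and stayed called in 6 of 9 fits that left out a library. Avpr1b, a vasopressin receptor, was at 7.77, 9.17 and 8.12 CPM in WT and at 4.72, 3.16 and 2.63 CPM in Heavy (log2 fold change -1.25). Edn3, the ligand endothelin 3, was at 22.7, 33.6 and 34.5 CPM in WT and at 15.4, 12.4 and 8.87 CPM in Heavy (log2 fold change -1.31). The Heavy mice were below all others in these 3 genes. Nxph1, a secreted ligand of neurexins, and Wscd1 had log2 fold changes of -1.48 and -1.42, and the unnamed transcripts Gm30238 and Gm34759 had -2.31 and -1.29. Ndn, an imprinted gene expressed from the paternal copy like Nnat, was at 67.5, 61 and 52.8 CPM in WT and at 36.6, 36.2 and 44.1 CPM in Heavy (log2 fold change -0.63, edgeR adjusted p = 0.0406). Of 18 imprinted genes tested it was the called member beside Nnat, and Peg3, Plagl1 and Cdkn1c had log2 fold changes of -0.04, 0.08 and 0.03.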

How the data were processed

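Islets were isolated with collagenase, and cDNA was made from total RNA with SMART-Seq v4, which does not keep strand, and sequenced as 50-base read pairs. Alignment was to GRCm38.p6 in snakePipes2, and the authors deposited raw counts per gene in 1 table per age; the submitters' notes also name FastQC and DESeq2. The counter is not given in the sources used here. All 55450 gene identifiers in each table match GENCODE release M21 of GRCm38, which gave symbols and positions, and the tables held 0 columns of unlisted samples. The 3 counts used as a floor, and every depth statement, cover counting error only.

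Counts were tested with edgeR 4.0.16 in R 4.3.3 (filterByExpr by group, TMM, quasi-likelihood F test, 1 mean per group, all 9 libraries of 6 weeks or all 10 of 3 weeks, and all 19 for the difference between the ages), with Benjamini-Hochberg adjustment over all genes tested. DESeq2 1.42.0 was the alternative test. On data simulated for the 6-week comparison, 68% of 2-fold and 92% of 4-fold changes were recovered, with 3.6% false among the called genes. For the 3-week comparison these were 82%, 98% and 9.1%. The simulated counts varied independently around a common mean, with changes placed only in genes above 1 CPM. The real WT mice of 6 weeks were not a tight group, so these rates cannot be carried over to the real data. CPM is counts per 1 M counts of the TMM-scaled library. No 2 libraries of a group agreed within sampling noise.

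The members and the 20 gene lists were chosen with earlier results of these data known. The text names Nnat and genes overlapping it, the 10 higher and 10 lower called genes of largest log2 fold change that averaged 10 counts or more and were apart in the mice, every called list member and, where a list is described, some of its first 4 members; Ddit3, Eif2ak3, Canx, Dnajc3, Creld2, Gm15441, Hmgb2 and Vgf were named after their values were seen. Some genes that fall under this rule are not reported here. Counts of mice that are apart and medians describe lists, and no list was tested as a whole.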

Additional observations from a re-analysis of the deposited data

Results flagged for a closer look

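The effect of the Heavy morph against WT differed between 6 and 3 weeks by the interaction test in edgeR (all 19 libraries) for the named genes given here, and the values are log2 fold changes at 6 weeks minus those at 3 weeks. Among immediate early and signalling genes they were 5.18 for Fos, 4.89 for Egr1, 3.30 for Dusp1, 2.79 for Txnip and 2.55 for Fgfr2. For transcription factors and other genes higher at 6 weeks they were 1.26 for H3f3b, 1.21 for Sox4, 0.73 for Btg1, 0.72 for Klf10 and 4.14 for Pzp. Among ER genes of entry and glycosylation they were -0.47 for Sec61b, -0.42 for Spcs3, -0.49 for Ssr4, -0.45 for Ddost, -0.41 for Ostc and -0.46 for Lman1. In the folding machinery they were -0.51 for Pdia3, -0.56 for Pdia6, -0.58 for Calr, -0.86 for Sdf2l1, -0.51 for Manf and -0.83 for Hyou1. Among other genes lower at 6 weeks they were -2.27 for Cox6a2, -3.08 for Gm30238, -1.52 for Nxph1, -1.41 for Wscd1, -1.60 for Edn3, -1.56 for Avpr1b, -1.09 for Rbp4 and -0.66 for Ndn. These genes were named for their 6-week difference, which enters this test, so their number is no evidence of its own. Age and count table are the same split, and the Heavy-like and WT mice of 3 weeks hold the sexes in unequal shares. The parts of age, table and sex in these differences cannot be told apart.

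Blcap in the 4 WT mice of 3 weeks was at 49.4, 49.4, 49.4 and 42.7 CPM, the lowest lying away from the others by 0.988 of the group's range. The lowest was the only female of the 4 mice. About 1 in 20 groups is marked in this way by chance.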

How the results depend on the processing

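The 104 calls of the 6-week comparison became 576 with DESeq2, 1614 without a filter on low counts, 1 (Nnat) with only Heavy and WT in the fit, 1 at an adjusted p under 0.01, 53 with a log2 fold change of 1 or more in size, and between 2 and 128 when a library was left out. All 103 called genes that were tested in the fit of only Heavy and WT had an unadjusted p under 0.05 there, as had 2351 genes in all. The 46 called named genes became 1 with only Heavy and WT and between 2 and 34 when a library was left out. Called members over the 19 lists other than the HDAC-responsive genes, 23, became 80 with DESeq2, 153 without the filter, 1 with only Heavy and WT, and between 1 and 24 when a library was left out. The 13 called HDAC-responsive genes became 53 with DESeq2, 134 without the filter, 0 with only Heavy and WT, and between 0 and 14 when a library was left out. The 2 genes called in the same direction at 3 weeks became 7 without the filter and between 2 and 4 when a library was left out (4 without Heavy-like 1). The 7 called in the opposite direction became 12 without the filter and stayed at 7 or 8 under the other settings. The 315 calls of the difference between the ages became 527 with DESeq2, 1032 without the filter, 174 with sex as a covariate, and between 138 and 379 when a library was left out, the lowest being 138 and 168 without Heavy-like 1 and 2, 204 without WT 1 or without WT 3 of 3 weeks, and 189 without WT 1 of 6 weeks. The cause of these shifts was not tested. Shares of counts moved by less than the spread between mice. Of 742 fold changes of the 47 genes followed across settings 0 turned in sign. Nearly all of these genes had been called on the same libraries, so this is a description only.

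Replicate numbers did not pair the mice: deviations of same-numbered Heavy and WT libraries correlated at -0.287, -0.044 and -0.164. With the replicate number as a block, 4 genes were called at 6 weeks, 4 of the named genes, 2 members of the same 19 lists and 1 HDAC-responsive gene, and 126 genes for the difference between the ages. Depth limits genes near 0.3 CPM, where a library holds a few counts.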

Other observations

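Several further gene groups had few or no calls. Of 41 cell cycle genes 0 were called by edgeR and 2 by DESeq2. In edgeR 7 of the 41 had an unadjusted p under 0.05, near the 17.7% of all genes. The mice were apart with Heavy higher for 6 (14.6%), near the 10.6% of all genes, and the median log2 fold change was 0.21. Mki67, a marker of dividing cells, was at 1.06, 1.7 and 1.18 CPM in Heavy and at 1.2, 0.424 and 1.34 CPM in WT, a few counts above the floor (log2 fold change 0.42 ± 0.64, SE, edgeR adjusted p = 0.783). Cdk6, a kinase of cell cycle entry, was at 16.7, 10.3 and 8.51 CPM in Heavy and at 1.79, 3.57 and 7.68 CPM in WT (log2 fold change 1.48, edgeR adjusted p = 0.135). Of 19 genes of hypoxia and glycolysis 0 were called by edgeR (5 at an unadjusted p under 0.05) and 1 by DESeq2.

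Other cell types of the islet had few calls. Of 11 endothelial markers 0 were called by edgeR (4 at an unadjusted p under 0.05) and 1 by DESeq2. All 11 log2 fold changes were below 0, against 50.4% of all genes, with a median of -0.64 and 1 (9.09%) apart with Heavy lower, and their summed level was 196, 78.4 and 135 CPM in Heavy and 340, 141 and 188 CPM in WT, which overlap. Of 14 immune markers 0 were called by edgeR (1 at an unadjusted p under 0.05) and 1 by DESeq2, and Cd68, a macrophage marker, was at 8.66, 10.7 and 12.9 CPM in Heavy and at 17.9, 21.4 and 14.9 CPM in WT. Of 16 stromal markers 0 were called by either test (2 at an unadjusted p under 0.05), with summed levels from 274 to 1484 CPM over the WT mice. The Schwann cell markers Sox10 and S100b did not pass the filter on low counts, and 0 of 3 tested markers were called by edgeR (1 at an unadjusted p under 0.05) and 1 by DESeq2. Mitochondrial transcripts took 0.36% ± 0.0269 (SD, n = 3) of counts in Heavy and 0.378% ± 0.0535 (SD, n = 3) in WT (exact permutation p = 0.7).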
